A study of Mus musculus with 7 samples.

Results

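Kinesins are the microtubule motors of the cell, and their genes were followed in RNA-Seq of neonatal mouse ventricle from a pair of closely related inbred substrains, BALB/cByJ and BALB/cJ. The members were all genes of the expression table whose symbol matches the kinesin naming pattern Kif or Kifc followed by a digit, which gave 41 of 17404 listed genes. Of these, 40 are motor genes and 1, Kif1bp, encodes a kinesin-binding protein that is not itself a motor. By known role, 13 of the motor genes are mitotic kinesins, 15 are transport kinesins and 12 are ciliary or other kinesins. BALB/cByJ was represented by 3 libraries and BALB/cJ by 4, all from ventricles taken at postnatal day 4 (P4), and each library came from several hearts pooled together. BALB/cByJ mice are homozygous for a natural deletion that removes almost all of the coding part of Cyth1, an exchange factor for ARF GTPases, and they transcribe the neighboring dynein gene Dnah17, whereas BALB/cJ mice have an intact Cyth1 and carry a retroviral insertion in Zhx2. Neither group was treated, both have the BALB/c background, the sex of the pups is not given in the labels, and whole ventricle holds many cell types besides cardiomyocytes.

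Kinesins hydrolyze ATP to step along microtubules, mostly toward the plus end, and each family carries its own cargo or acts on the microtubule itself. Mitotic kinesins build the spindle, move chromosomes and set up the midzone where a dividing cell is cut apart, so their transcripts are mostly made late in the cell cycle, while transport kinesins carry vesicles, mitochondria and other organelles in cells whether or not they divide. In the first postnatal days many mouse cardiomyocytes replicate their DNA once more and part of them finish mitosis without cytokinesis, which is how polyploid and multinucleate cardiomyocytes arise.

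Values are a normalized signal of the size of FPKM or TPM, and the sources used here do not give which of the pair it is. Levels of different genes are therefore compared on the footing that the signal is per transcript length. The summed signal per library was 543023 to 628977, and 11815 to 11979 genes were at 1 or more. Markers of cardiomyocytes were high in every library, with 7 of 7 marker genes listed and summed signals of 15949 to 19087 in BALB/cByJ and 14001 to 17569 in BALB/cJ. Some libraries stood apart. The summed signal of 10 thymocyte markers was 1.11, 0.7 and 0.94 in BALB/cByJ, against 2.03, 0.89, 16.95 and 5.79 in BALB/cJ, so it was high in BALB/cJ 3 and 4, and Cd8b1 was at 0 in every BALB/cByJ library. The summed signal of 4 Y-linked genes was 128, 87.6 and 80.2 in BALB/cByJ, against 0.04, 14.8, 22.6 and 37.6 in BALB/cJ, without overlap, so the share of male tissue in the pools and the strain cannot be told apart. No number of reads per library could be derived from the signal, and the spread between pools is the only error given.

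The transport motors Kif1c and Kif5b had the highest signals of all members. A strain difference was tested in the 32 members whose mean signal over the 7 libraries was at least 0.5, with limma on log2(signal + 1), so that a log2 fold change is on that scale and understates the change of low genes, and with Benjamini-Hochberg adjustment over all 12715 genes tested. Of the 32 members 1 was called lower in BALB/cByJ at an adjusted p under 0.05 and none was called higher, and 1.65% of all genes tested were called in either direction. At an unadjusted p under 0.05 there were 8 members lower in BALB/cByJ and 0 higher, beside 13.3% of all genes lower at that threshold. The signal was below that of every BALB/cJ library in every BALB/cByJ library for 8 members, beside 12.6% of all genes, and it was above in 0, beside 4.33%. By quantile normalization it was below for 4 members and above for 1, and the share of all genes was not computed there. The log2 fold change was below 0 for 29 of the 32 members, against 65.2% of all genes, and its median was -0.18 over the members and -0.07 over all genes.

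**Figure D1:**
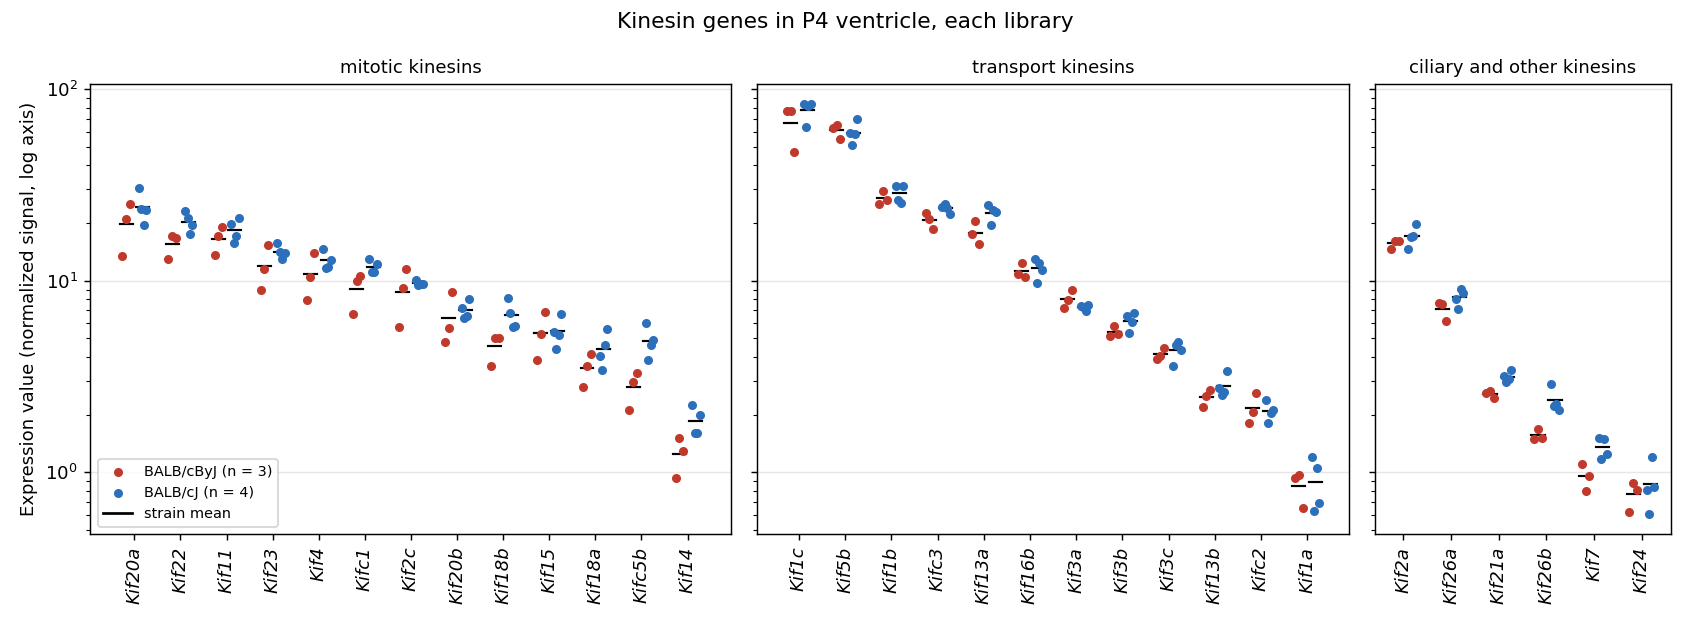
Normalized signal of each tested kinesin motor gene (log axis, with genes grouped by class on the horizontal axis) in the 3 BALB/cByJ and 4 BALB/cJ libraries, 1 point per library. Kif1c and Kif5b lie highest, between 47.2 and 83.5 in every library, and the mitotic kinesins lie between 0.94 and 30.4.

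All 13 mitotic kinesins were detected and tested. The log2 fold change was below 0 for 13 of 13, against 65.2% of all genes. After quantile or trimmed mean scaling it was below 0 for 12 of 13, against 53.0% and 50.5% of all genes. Without this scaling it lay between -0.62 and -0.05 with a median of -0.26. Of the 13, 1 passed the test, Kifc5b, beside 0.881% of all genes called lower. For 5 of the 13 the strains did not overlap, with BALB/cByJ lower, beside 12.6% of all genes. This held for 3 of them, Kif14, Kif18b and Kifc5b, after trimmed mean scaling and for 1, Kifc5b, by quantile normalization. The share of all genes without overlap was not computed under either scaling. The difference depended on 1 library: all 13 mitotic kinesins had their lowest value of the 7 libraries in BALB/cByJ 1, where 22.9% of all tested genes had theirs. Without BALB/cByJ 1 the median log2 fold change of the mitotic kinesins was -0.09, against -0.07 over all genes, and it was below 0 for 10 of the 13. Without BALB/cByJ 3, in which 10 of the 13 were highest within that strain, the median was -0.42.

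By mean level, Kif20a, Kif22 and Kif11 came first among the mitotic kinesins. Kif20a, which brings the chromosomal passenger complex to the central spindle, had a signal of 13.5, 20.9 and 25.1 in BALB/cByJ, against 30.4, 23.7, 19.6 and 23.4 in BALB/cJ. The strains overlapped, with BALB/cByJ 1 lowest and BALB/cJ 1 highest, and the log2 fold change was -0.31 (SE 0.18, limma adjusted p = 0.365). Kif22, a chromokinesin that pushes chromosome arms away from the spindle poles, was at 12.9, 17.2 and 16.7 in BALB/cByJ, against 23.02, 21.2, 17.6 and 19.6 in BALB/cJ. Its BALB/cByJ libraries all lay below those of BALB/cJ, the narrowest gap being that between BALB/cByJ 2 and BALB/cJ 3, with a mean of 15.6 ± 2.33 in BALB/cByJ and 20.4 ± 2.31 in BALB/cJ (SD, n = 3 and 4). The log2 fold change of Kif22 was -0.37 (SE 0.12), and it did not pass the test (limma adjusted p = 0.1402). Kif11, the tetrameric motor that pushes spindle poles apart, was at 13.6, 17.1 and 18.99 in BALB/cByJ, against 19.7, 15.8, 17.03 and 21.2 in BALB/cJ. BALB/cByJ 2 and 3 fell among the BALB/cJ libraries, and the log2 fold change was -0.15 (SE 0.13, limma adjusted p = 0.561).

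Kif23 is the motor of centralspindlin, the complex that bundles midzone microtubules and recruits the machinery for cytokinesis. Its signal was 8.98, 11.5 and 15.3 in BALB/cByJ, against 15.8, 14.1, 12.95 and 13.96 in BALB/cJ. The spread within BALB/cByJ was wider than that within BALB/cJ, at a mean of 11.9 ± 3.21 in BALB/cByJ and 14.2 ± 1.16 in BALB/cJ (SD, n = 3 and 4), and the log2 fold change was -0.26 (limma adjusted p = 0.346). Kif14, which works at the midbody with citron kinase, was the lowest of the class at 0.94, 1.52 and 1.3 in BALB/cByJ, against 2.24, 1.61, 1.61 and 1.99 in BALB/cJ. The strains did not overlap for Kif14, but the highest BALB/cByJ and the lowest BALB/cJ libraries were 1.52 and 1.61, and the log2 fold change of -0.35 (SE 0.13) was not called (limma adjusted p = 0.189). Kif18b, a kinesin that shortens astral microtubules, had 3.58, 5.03 and 5.03 in BALB/cByJ, against 8.13, 6.79, 5.74 and 5.81 in BALB/cJ. The strains were apart, with a mean of 4.55 ± 0.837 in BALB/cByJ and 6.62 ± 1.12 in BALB/cJ (SD, n = 3 and 4), a log2 fold change of -0.46 (SE 0.14) and a limma adjusted p of 0.1099.

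The remaining mitotic motors with overlapping strains were Kif4, Kif2c, Kif20b, Kif15 and Kif18a. Kif4 is a chromokinesin that limits midzone length, Kif2c is a depolymerase that corrects faulty kinetochore attachments, and Kif18a damps chromosome oscillations. Their log2 fold changes lay between -0.26 for Kif18a and -0.05 for Kif15, a motor that helps Kif11 to keep the spindle bipolar, with limma adjusted p-values of 0.354 to 0.908. BALB/cByJ 1 was lowest for each of the 5, whereas BALB/cByJ 3 was within the BALB/cJ range for Kif4 and Kif18a and above it for Kif2c, Kif20b and Kif15. Kif2c, for example, was at 5.71, 9.17 and 11.5 in BALB/cByJ, against 10.1, 9.5, 9.57 and 9.57 in BALB/cJ.

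The 1 kinesin called was Kifc5b (gene ID 16580, chr17:26917091-26932579, GRCm38), a near copy of Kifc1, both of which encode minus-end-directed motors of the kinesin-14 family. Kifc1 is known for focusing spindle poles and for clustering extra centrosomes. Kifc5b had 2.11, 2.98 and 3.32 in BALB/cByJ, against 6.01, 3.84, 4.63 and 4.89 in BALB/cJ. All 3 BALB/cByJ libraries were below all 4 BALB/cJ libraries, the mean was 2.803 ± 0.624 in BALB/cByJ and 4.84 ± 0.897 in BALB/cJ (SD, n = 3 and 4), and in BALB/cByJ Kifc5b fell by 0.62 in log2 terms (SE 0.15, limma adjusted p = 0.0483). Kifc1 (gene ID 100502766, chr17:33875664-33890633) had 6.73, 9.94 and 10.6 in BALB/cByJ, against 12.95, 11.1, 11.1 and 12.3 in BALB/cJ. Its strains did not overlap either, at a mean of 9.1 ± 2.08 in BALB/cByJ and 11.9 ± 0.904 in BALB/cJ (SD, n = 3 and 4), but its log2 fold change of -0.37 (SE 0.14) did not pass the test (limma adjusted p = 0.175).

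The call of Kifc5b stood at the edge of the threshold and was lost in most other fits, where the limma adjusted p ran between 0.0373 and 0.338. It was kept without BALB/cJ 2 (0.0373), and lost without each of the other libraries. It was 0.213, 0.0760 and 0.0858 without BALB/cByJ 1, 2 and 3, and 0.0880, 0.0813 and 0.110 without BALB/cJ 1, 3 and 4, with log2 fold changes between -0.72 and -0.48. With the summed Y-linked signal as a covariate the log2 fold change was -0.38 (limma adjusted p = 0.338). The values of the pair are also uncertain one against the other, since reads of a shared stretch can be given to either gene. Of all stretches of 50 bases in the 2491-base Kifc1 transcript 44.1% also occurred in Kifc5b, and 38.4% of those in the 2854-base Kifc5b transcript occurred in Kifc1, whereas for each other member the share found in any other gene was at most 3.04%. The sum of both signals, which is less exposed to such a division, was 8.84, 12.9 and 13.95 in BALB/cByJ, against 18.96, 14.9, 15.8 and 17.1 in BALB/cJ. The sum did not overlap between the strains and its ratio of BALB/cByJ to BALB/cJ means was 0.713, against 0.579 for Kifc5b alone. The ratio of Kifc5b to Kifc1 was 0.314, 0.2998 and 0.312 in BALB/cByJ, against 0.464, 0.346, 0.416 and 0.399 in BALB/cJ, lower in each BALB/cByJ library than in each BALB/cJ library. Leaving both genes out, the median log2 fold change of the other 11 mitotic kinesins was -0.26.

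**Figure D2:**
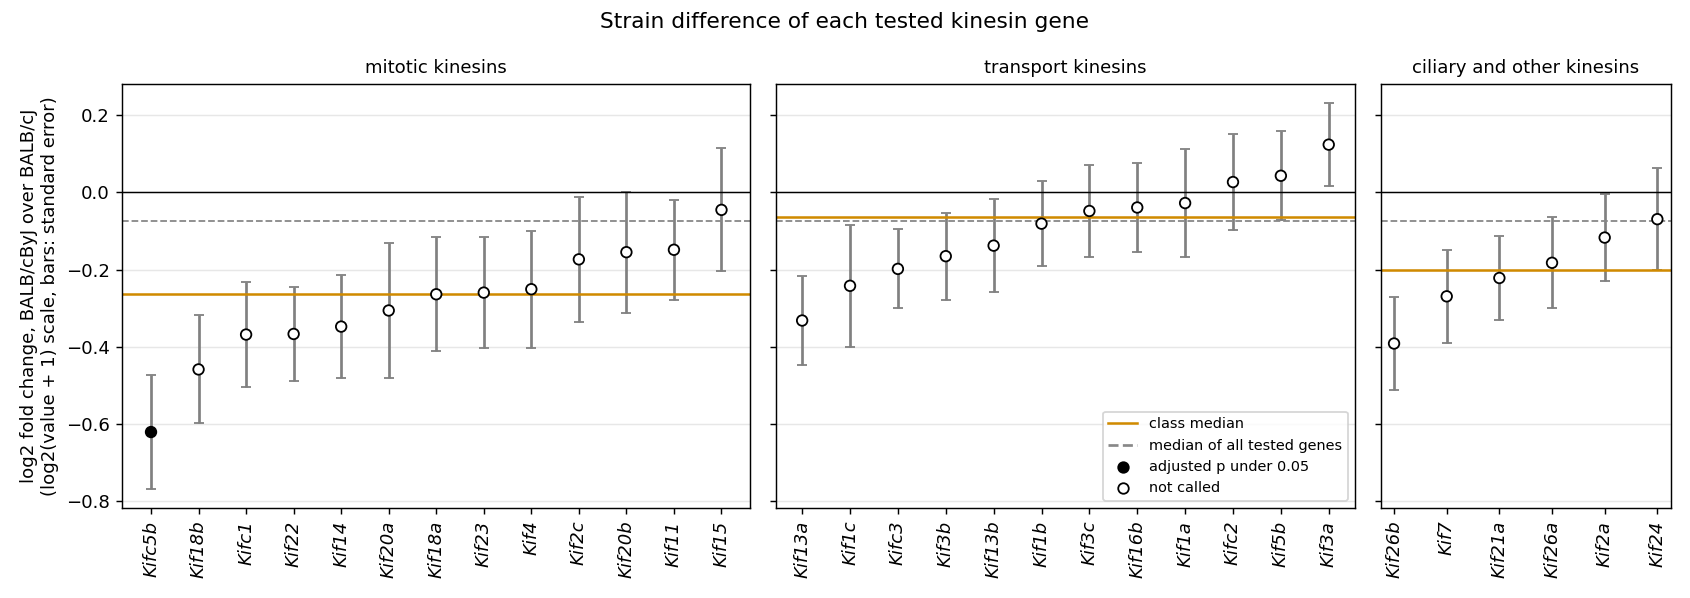
Log2 fold change of BALB/cByJ over BALB/cJ for each tested motor gene, by class and without Kif1bp, with the standard error of the limma fit as bars. The mitotic kinesins lie between -0.62 and -0.05, and the transport kinesins lie on both sides of 0, between -0.33 and 0.12.

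Genes that are transcribed in late cell cycle commonly hold, near their start, the cell cycle genes homology region, a TTTGAA element read by the DREAM and MuvB complexes, and upstream of it CCAAT boxes read by NF-Y. Since all mitotic kinesins were lowest in the same library, their promoters were searched for the letters TTTGAA and CCAAT on both strands, where they read TTCAAA and ATTGG on the other strand. RefSeq promoter windows of 250 bases before to 50 bases after the start (GRCm38.p6) were found for 32 of the 41 members. TTTGAA occurred in 11 of 12 mitotic, 1 of 10 transport and 2 of 9 other kinesins, and in 17.9% of all 32851 promoter windows of that length. Kinesins were counted by gene, with a match in any of its windows, whereas the share of all promoters is by window. The transport match lay in only 1 of the windows of Kif1a, and the near copies Kifc1 and Kifc5b were counted as separate genes. Within 50 bases of the start, a span chosen after the matches were seen, it occurred in 9 of 12 mitotic, 1 of 10 transport and 1 of 9 other kinesins, and in 4.94% of all windows. CCAAT was less particular, with 8 of 12 mitotic, 3 of 10 transport and 4 of 9 other kinesins, beside 37.4% of all windows. A match is a description of the letters and not of a bound factor, and a match to one motif can share at most 1 base with a match to the other.

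The 100 bases from 70 before to 30 after the start are shown for 6 of the 9 mitotic kinesins that hold the element within 50 bases of the start, those given above with their values per library, and for the transport kinesin Kif13a as a contrast without either motif. Capitals mark every match to TTTGAA or CCAAT on either strand, and sequences run from 5′ to 3′ on the strand of the gene.
Kif11 (chr19:37376312-37376411, plus strand): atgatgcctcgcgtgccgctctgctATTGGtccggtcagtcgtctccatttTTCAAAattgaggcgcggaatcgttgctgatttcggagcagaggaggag
Kif22 (chr7:127042391-127042490, minus strand): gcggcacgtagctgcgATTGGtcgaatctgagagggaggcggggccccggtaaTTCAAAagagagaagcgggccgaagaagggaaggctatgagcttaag
Kif18b (chr11:102925095-102925194, minus strand): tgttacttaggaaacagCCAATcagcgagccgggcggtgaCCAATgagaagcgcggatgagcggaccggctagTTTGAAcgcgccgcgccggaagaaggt
Kif23 (chr9:61946770-61946869, minus strand): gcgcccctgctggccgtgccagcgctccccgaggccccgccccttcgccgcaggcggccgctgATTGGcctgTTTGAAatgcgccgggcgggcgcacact
Kifc1 (chr17:33890604-33890703, minus strand): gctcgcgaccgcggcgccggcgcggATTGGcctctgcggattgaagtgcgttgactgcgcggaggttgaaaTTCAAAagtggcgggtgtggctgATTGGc
Kifc5b (chr17:26917021-26917120, plus strand): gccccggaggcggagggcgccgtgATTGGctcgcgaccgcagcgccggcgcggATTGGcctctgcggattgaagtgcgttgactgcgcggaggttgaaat
Kif13a (chr13:46929689-46929788, minus strand): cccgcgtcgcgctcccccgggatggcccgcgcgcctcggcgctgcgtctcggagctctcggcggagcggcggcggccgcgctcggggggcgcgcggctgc
The element began 19 bases before the first transcribed base in Kif11 and 17 before it in Kif22, and in Kif18b, Kif23 and Kifc1 it began 3, 2 and 1 bases after it. The other 3, not shown, were Kif15, with the element 19 bases before, Kif4, with it 19 bases after, and Kif20b, with it 7 and 13 bases after. In Kifc5b its first base was 29 bases after, at the end of the span shown and so only partly in it. The Kifc1 and Kifc5b windows share a run of 68 identical bases, and with a shift of 28 bases 239 of 272 aligned bases (87.9%) are the same.

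**Figure D3:**
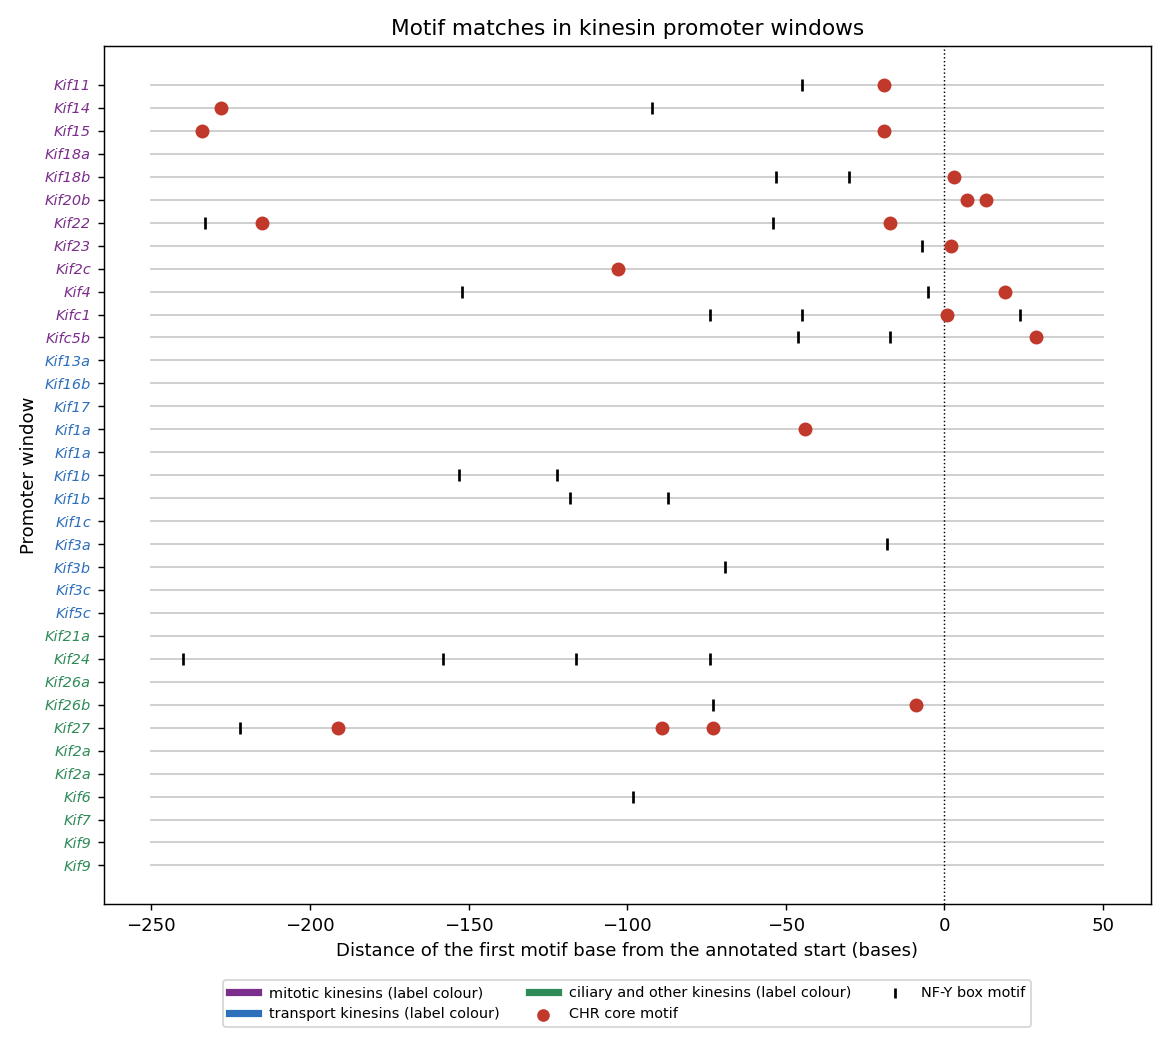
Positions of TTTGAA and CCAAT matches in the promoter windows of the kinesin genes, as the distance in bases of the first motif base from the annotated start (horizontal axis), 1 line per window and grouped by class. TTTGAA matches within 50 bases of the start are seen in 9 of 12 mitotic and 1 of 10 transport kinesins.

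Transport kinesins made up most of the kinesin signal, 51.2% to 64.1% of the sum over all members in BALB/cByJ and 54.1% to 57.6% in BALB/cJ. None of the 12 that were tested was called, by limma, and 1 of them had an unadjusted p under 0.05, beside 18.3% of all genes. The log2 fold change was below 0 for 9, against 65.2% of all genes, and above 0 for 3. It lay between -0.33 and 0.12 with a median of -0.06, beside -0.07 over all genes, and over all libraries the strains overlapped for all 12. Without BALB/cByJ 1 they did not overlap for Kif3a, higher in BALB/cByJ, or for Kifc3, lower there. With another single library left out, Kif13a, Kif13b, Kif1c, Kif3b or Kifc3 was lower without overlap. The share of all genes was not computed for these fits. Kif1c, a kinesin-3 that carries vesicles, had the highest mean of all members, at 76.6, 76.9 and 47.2 in BALB/cByJ, against 83.3, 63.4, 81.3 and 83.5 in BALB/cJ. BALB/cByJ 3 was the lowest library and BALB/cJ 2 the next. The log2 fold change was -0.24 (SE 0.16, limma adjusted p = 0.427), and without BALB/cByJ 3 it was -0.01 (limma adjusted p = 0.981). Kif5b, the ubiquitous heavy chain of conventional kinesin-1, which moves mitochondria and many other cargoes, was at 62.6, 65.2 and 55.2 in BALB/cByJ, against 58.7, 50.95, 58.3 and 69.5 in BALB/cJ. The strains overlapped throughout, with a mean of 60.98 ± 5.16 in BALB/cByJ and 59.4 ± 7.63 in BALB/cJ (SD, n = 3 and 4) and a log2 fold change of 0.04 (SE 0.11, limma adjusted p = 0.871), so that the approximate range of plus or minus 2 SE about it spans 0.

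Kif1b, a kinesin-3 known for carrying mitochondria and synaptic vesicle precursors, was at 25.1, 29.3 and 26.2 in BALB/cByJ, against 31.2, 26.2, 25.5 and 31.2 in BALB/cJ, with a log2 fold change of -0.08 (limma adjusted p = 0.721). Kifc3, a minus-end-directed motor linked to cell-cell junctions, was at 22.6, 21.1 and 18.6 in BALB/cByJ, against 24.3, 25.04, 24.02 and 22.2 in BALB/cJ. Only BALB/cJ 4 of the BALB/cJ libraries fell within the BALB/cByJ range, and the log2 fold change was -0.20 (SE 0.10, limma adjusted p = 0.315). Kif13a, which moves recycling endosomes, had the most negative log2 fold change of the transport class, -0.33 (SE 0.12), and did not pass the test (limma adjusted p = 0.154). Its signal was 17.5, 20.4 and 15.5 in BALB/cByJ, against 24.7, 19.6, 23.3 and 22.9 in BALB/cJ, and BALB/cByJ 2 lay above BALB/cJ 2 by less than 1.

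The heterotrimeric kinesin-2 genes, which drive transport into cilia as well as in the cytoplasm, gave both signs. The most positive log2 fold change of all members was that of Kif3a, 0.12 (limma adjusted p = 0.559), from 7.19, 7.94 and 8.95 in BALB/cByJ, against 7.36, 7.28, 6.94 and 7.46 in BALB/cJ. Kif3b had -0.16 and Kif3c had -0.05, with limma adjusted p-values of 0.449 and 0.859. The endosomal motor Kif16b, the kinesin-3 Kif13b, the minus-end-directed Kifc2 and the axonal Kif1a lay between -0.14 and 0.03, none called. Kif5c and Kif5a, the kinesin-1 heavy chains of neurons, and Kif17, a dendritic and ciliary motor, had means of 0.0314 to 0.249 and no value over 0.36, so they were not tested. Kif17 was at 0 in 3 of the 4 BALB/cJ libraries and at 0.03 to 0.09 in BALB/cByJ. The summed signal of 9 neuronal markers was also low, at 8.62, 6.44 and 6.97 in BALB/cByJ, against 4.81, 6.75, 6.03 and 5.99 in BALB/cJ.

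Set against each other, the median log2 fold change of the mitotic kinesins was 0.20 below that of the transport kinesins, a difference given as a description. Without BALB/cByJ 1, or with the Y-linked covariate, it was 0.04 below, and without BALB/cByJ 3 it was 0.35 below. By library, the summed signal of the mitotic kinesins was 87.3, 120.2 and 142 in BALB/cByJ, against 159.6, 134, 128 and 146 in BALB/cJ. Its mean was 116 ± 27.4 in BALB/cByJ and 142 ± 14.04 in BALB/cJ (SD, n = 3 and 4), and BALB/cByJ 3 lay above BALB/cJ 2 and 3, so the strains overlapped. The summed signal of the transport kinesins was 237, 249 and 198 in BALB/cByJ, against 259, 218, 249 and 266 in BALB/cJ. It overlapped as well, and here BALB/cByJ 3 was the lowest library. In percent of the summed kinesin signal, the mitotic kinesins made up 23.6, 28.8 and 36.6 in BALB/cByJ, against 33.9, 33.2, 29.7 and 31.3 in BALB/cJ, and the extremes of the 7 libraries, 23.6% and 36.6%, both belonged to BALB/cByJ. In bulk tissue fewer cells of a type and less RNA per cell cannot be told apart, so a lower mitotic sum can stand for fewer dividing cells or for less transcript in each.

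**Figure D4:**
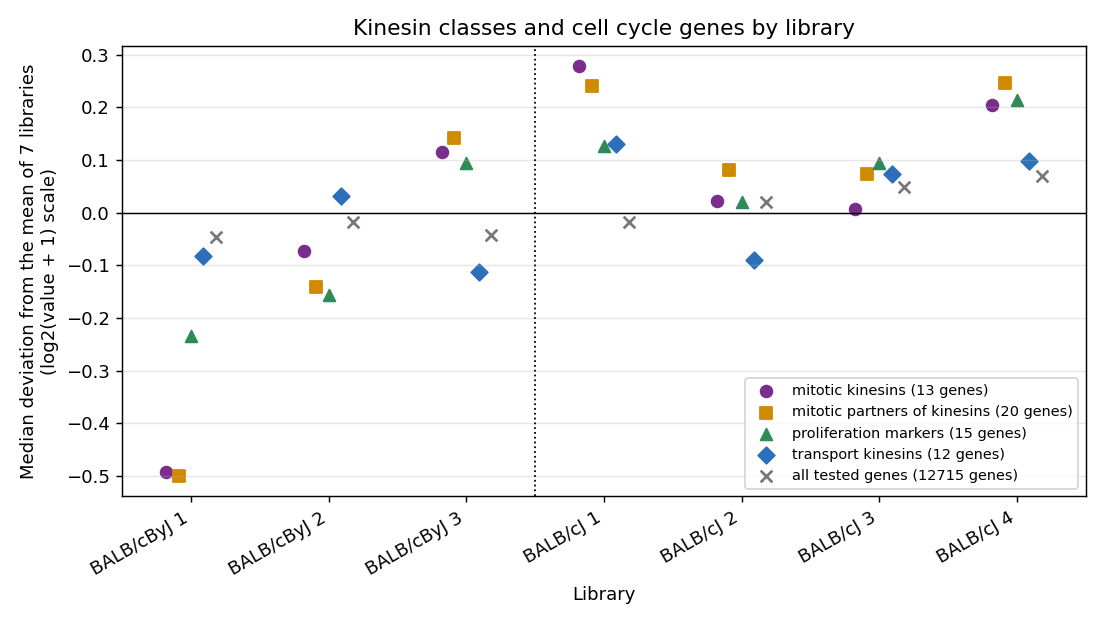
Median deviation of each gene class from its mean over the 7 libraries (log2(signal + 1) scale, vertical axis) in each library (horizontal axis, BALB/cByJ left of BALB/cJ). The mitotic kinesins run from -0.49 in BALB/cByJ 1 to 0.28 in BALB/cJ 1, with their partners close beside them, and the transport kinesins stay between -0.11 and 0.13.

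The proteins that mitotic kinesins work with gave nearly the same order of libraries, BALB/cByJ 1 and 2 being lowest in both sets. Listed among these partners is Cenpe, itself a mitotic kinesin that the naming pattern does not match (log2 fold change -0.22, limma adjusted p = 0.467). The median deviation of 20 such partners from their mean over all libraries, on the log2 scale, was -0.50, -0.14 and 0.14 in BALB/cByJ, against 0.24, 0.08, 0.07 and 0.25 in BALB/cJ. The corresponding values of the mitotic kinesins were -0.49, -0.07 and 0.12 in BALB/cByJ, against 0.28, 0.02, 0.01 and 0.20 in BALB/cJ. All 20 partners had a log2 fold change below 0, against 65.2% of all genes, with a median of -0.34. Of the 20, 3 were called lower by limma, beside 0.881% of all genes called lower. Without BALB/cByJ 1 the median was -0.19, with 18 of 20 below 0 and 1 called. None of the 20 was called by limma with the Y-linked covariate, where 18 were below 0, with no filter, with the replicate block or without BALB/cJ 3 and 4. Aurka, the kinase that phosphorylates Kif11 and activates spindle assembly, had 12.8, 16.7 and 17.1 in BALB/cByJ, against 26.7, 24.5, 24.03 and 28.5 in BALB/cJ. In BALB/cByJ it fell by 0.71 in log2 terms (SE 0.12, limma adjusted p = 0.00715), without overlap. Racgap1, the partner of Kif23 in centralspindlin, was at 25.2, 32.9 and 29.5 in BALB/cByJ, against 43.98, 43.1, 40.2 and 45.6 in BALB/cJ, and it fell by 0.56 in BALB/cByJ (SE 0.11, limma adjusted p = 0.0196). Cdca8, the borealin subunit of the chromosomal passenger complex that Kif20a transports, was at 16.7, 23.2 and 27.6 in BALB/cByJ, against 37.5, 35.1, 33.7 and 35.5 in BALB/cJ, and it fell by 0.66 in BALB/cByJ (SE 0.14, limma adjusted p = 0.0246). Plk1, a mitotic kinase that binds the midzone kinesins, was apart between the strains at 8.38, 14.2 and 14.1 in BALB/cByJ, against 20.7, 18.4, 15.9 and 17.9 in BALB/cJ, but it was not called (limma adjusted p = 0.0817).

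Of these calls, those of Racgap1 and Cdca8 were lost when some single libraries were left out. Without BALB/cByJ 1, Aurka was called (limma adjusted p = 0.0420), while Racgap1 (0.112) and Cdca8 (0.111) were not. The call of Aurka was kept whichever library was left out, that of Racgap1 was lost without BALB/cByJ 1 or 3 or without BALB/cJ 4, and that of Cdca8 without BALB/cByJ 1 or 2 or without BALB/cJ 2 or 4. Across all alternatives, the limma adjusted p ran between 0.00493 and 0.0973 for Aurka, between 0.0148 and 0.172 for Racgap1 and between 0.0156 and 0.199 for Cdca8. Of 15 general proliferation markers, 13 had a log2 fold change below 0, against 65.2% of all genes, with a median of -0.17. The median was -0.09, with 11 of 15 below 0, both without BALB/cByJ 1 and after trimmed mean scaling. Of the 15, 2 were called lower, beside 0.881% of all genes. These were Rrm2, a subunit of ribonucleotide reductase, and Foxm1, a transcription factor of late cell cycle genes. Rrm2 was at 33.1, 47.4 and 42.7 in BALB/cByJ, against 69.8, 55.1, 63.8 and 71.04 in BALB/cJ, and it fell by 0.66 in BALB/cByJ (SE 0.13, limma adjusted p = 0.0208). Foxm1 was at 9.14, 11.6 and 10.6 in BALB/cByJ, against 14.3, 14.9, 17.1 and 18.6 in BALB/cJ, and it fell by 0.59 in BALB/cByJ (SE 0.12, limma adjusted p = 0.0227). Neither was called without BALB/cByJ 1 (limma adjusted p = 0.118 for Rrm2 and 0.124 for Foxm1), without BALB/cByJ 3 or without BALB/cJ 4, and Foxm1 was also lost without BALB/cJ 3. Both calls were also lost with no filter, over the 6 libraries with shared numbers with or without the replicate block, with the Y-linked covariate and without BALB/cJ 3 and 4. Ccna2 and Mybl2 were not called (limma adjusted p = 0.141 and 0.223). Mki67 had a log2 fold change of -0.17 (limma adjusted p = 0.631). The 2 markers above 0 were Mcm6 at 0.08 and Top2a at 0.01 (limma adjusted p = 0.746 and 0.979).

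The cargo side of the transport machinery held no called gene. Of 27 kinesin light chains, adaptors and related cargo and dynein genes, 26 were listed and 22 tested by limma, of which 0 were called. An unadjusted p under 0.05 was reached by 3, all lower, beside 13.3% of all genes lower at that threshold. The median log2 fold change was -0.10, with 18 of 22 below 0, against 65.2% of all genes. Fez2, an adaptor of kinesin-1, came closest, with 41.8, 41.1 and 39.9 in BALB/cByJ, against 52.1, 59.9, 50.4 and 50.2 in BALB/cJ. Its strains did not overlap, at a log2 fold change of -0.36 (SE 0.10, limma adjusted p = 0.0817). Trak1, which links kinesin-1 to mitochondria, was at 65.5, 72.4 and 44.1 in BALB/cByJ, against 83.3, 68.4, 71.7 and 75.3 in BALB/cJ. It overlapped between the strains and was lowest in BALB/cByJ 3, the library in which Kif1c was lowest (log2 fold change -0.32, limma adjusted p = 0.251). The dynein light intermediate chain Dync1li1 and the JNK scaffold Mapk8ip3 had -0.34 and -0.16, with limma adjusted p-values of 0.1698 and 0.419.

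Among the 12 ciliary and other kinesins, 6 were tested by limma and 0 were called. An unadjusted p under 0.05 was reached by 2, both lower, beside 13.3% of all genes lower at that threshold. The log2 fold change was below 0 for all 6, against 65.2% of all genes, with a median of -0.20. For 3 of them, Kif26b, Kif21a and Kif7, BALB/cByJ was below BALB/cJ without overlap, beside 12.6% of all genes. Kif26b is an atypical kinesin of embryonic development that has lost the ability to move on ATP. Its signal was 1.49, 1.69 and 1.51 in BALB/cByJ, against 2.89, 2.21, 2.27 and 2.12 in BALB/cJ. The BALB/cByJ libraries lay close together and below all BALB/cJ libraries, with a mean of 1.56 ± 0.1102 in BALB/cByJ and 2.37 ± 0.3505 in BALB/cJ (SD, n = 3 and 4), and the log2 fold change was -0.39 (SE 0.12, limma adjusted p = 0.112). Kif26b was also the non-mitotic kinesin of this class with TTTGAA next to its start, 9 bases before the first transcribed base, shown here in capitals over the same span of 100 bases.
Kif26b (chr1:178529055-178529154, plus strand): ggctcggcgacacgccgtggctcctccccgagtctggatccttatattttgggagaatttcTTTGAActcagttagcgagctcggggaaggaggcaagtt

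Kif21a, which curbs microtubule growth at the cell cortex, was at 2.59, 2.67 and 2.44 in BALB/cByJ, against 3.17, 2.97, 3.09 and 3.41 in BALB/cJ. The highest BALB/cByJ library was at 2.67 and the lowest BALB/cJ library at 2.97, and the log2 fold change was -0.22 (SE 0.11, limma adjusted p = 0.299). Kif7, the ciliary tip kinesin of Hedgehog signaling, was at 1.11, 0.8 and 0.96 in BALB/cByJ, against 1.51, 1.18, 1.5 and 1.24 in BALB/cJ, with a log2 fold change of -0.27 (SE 0.12, limma adjusted p = 0.251). An exon of the DNA replication gene Ticrr lies on the other strand over Kif7, and without a stated strand of counting the reads of such partners cannot be told apart. Ticrr was at 0.77, 0.92 and 0.89 in BALB/cByJ, against 1.29, 1.08, 1.44 and 1.28 in BALB/cJ, likewise without overlap, and was not called (log2 fold change -0.29, limma adjusted p = 0.209). In all, 26 of the 41 members have such an overlap with a gene on the opposite strand. Kif20a lies opposite Brd8 and Cdc23, which were not called, and Kif18a lies opposite Mettl15, which was called higher in BALB/cByJ (log2 fold change 0.55, limma adjusted p = 0.0431).

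Kif2a, a depolymerase that acts at spindle poles as well as in neurons and cilia, was the most abundant of the class at 14.6, 16.1 and 16.2 in BALB/cByJ, against 14.6, 16.8, 17.2 and 19.9 in BALB/cJ. Unlike the mitotic kinesins it was not lowest in BALB/cByJ 1 alone, since BALB/cJ 1 was as low, and its log2 fold change was -0.12 (limma adjusted p = 0.606). Kif26a, a relative of Kif26b known for restraining growth factor signaling in enteric neurons, had 7.63, 7.58 and 6.16 in BALB/cByJ, against 8.02, 7.12, 9.08 and 8.63 in BALB/cJ, with a log2 fold change of -0.18 (limma adjusted p = 0.421). Kif24, which removes microtubules at the base of the cilium, had -0.07 (limma adjusted p = 0.814). Kif21b, Kif6, Kif27, Kif9, Kif19a and Kif28 had means of 0.0771 to 0.484 with no value over 0.88 and were not tested. Several of these serve motile cilia. The 4 listed markers of multiciliated cells were low as well, Rsph1 at 0.53 to 1.45 and Ccdc39 at 0.14 to 0.71 over the 7 libraries, and Tekt1 and Foxj1 at no more than 0.35 and 0.13, each at 0 in at least 1 library. Kif1bp, the kinesin-binding protein that holds motors off microtubules, was at 15.9, 17.7 and 17.7 in BALB/cByJ, against 19.4, 18.3, 18.9 and 16.6 in BALB/cJ, with a log2 fold change of -0.09 (limma adjusted p = 0.648).

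Other measures differed between the libraries along with the kinesins. The summed Y-linked signal was higher in every BALB/cByJ library and highest in BALB/cByJ 1, and with it as a covariate the median log2 fold change of the mitotic kinesins was -0.12, equal to the -0.12 over all genes, with 12 of 13 below 0. Thymocyte markers, which were high in BALB/cJ 3 and 4, mark developing T cells, which also divide. Without these libraries the median of the mitotic kinesins was -0.33, against -0.04 over all genes, with 12 of 13 below 0. The part of thymocytes in the result was not tested. Erythroid markers were at summed signals of 2914, 2584 and 3252 in BALB/cByJ, against 3786, 8428, 3836 and 5653 in BALB/cJ, and their part in the result was not tested. Scaling moved the all-gene median from -0.07 to -0.01 by quantile normalization and to 0.00 by a trimmed mean of M values. Under these, 53.0% and 50.5% of all genes were below 0, against 65.2% without scaling. The mitotic medians were then -0.18 and -0.20, with 12 of 13 below 0 each, and the transport medians were -0.01 and 0.00.

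**Figure D5:**
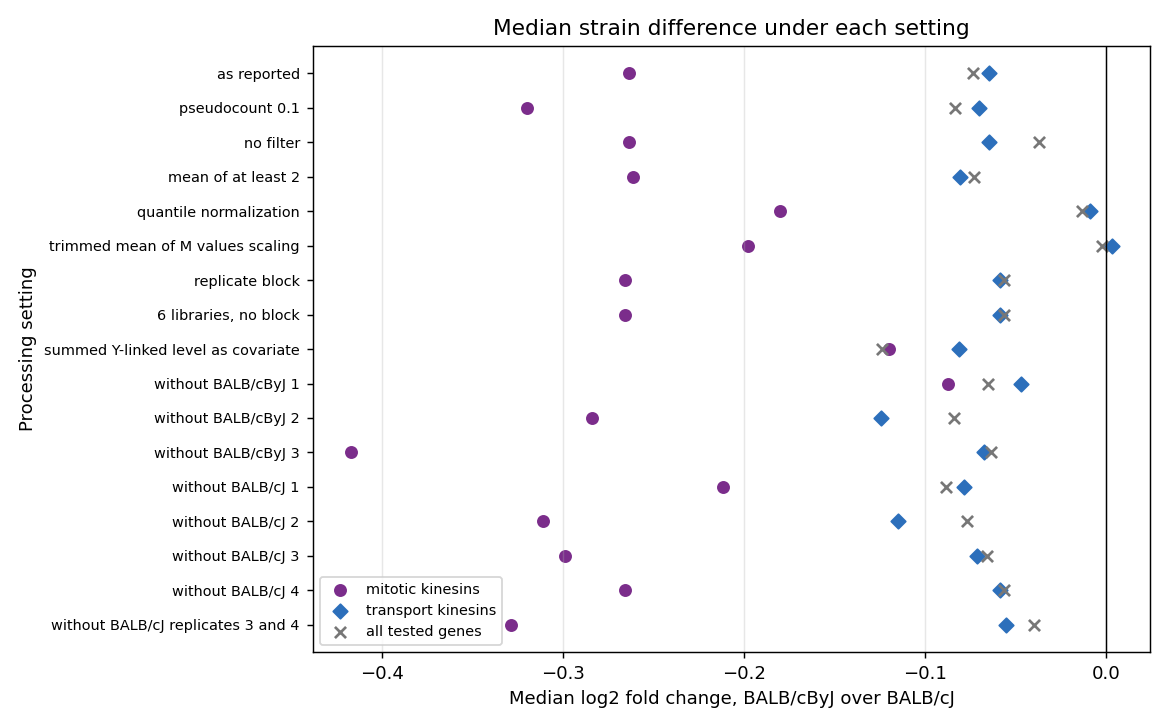
Median log2 fold change of BALB/cByJ over BALB/cJ for the mitotic kinesins, the transport kinesins and all genes (horizontal axis) under each way of processing (vertical axis). The mitotic median runs from -0.42 without BALB/cByJ 3 to -0.09 without BALB/cByJ 1, where it is next to the all-gene median of -0.07.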

How the data were processed

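RNA from pooled P4 ventricles was sequenced by BGI Genomics. The authors deposited 1 table of a normalized signal for 17404 genes in 7 libraries, and the submitters' processing notes name the build mm10. The sources used here do not give the aligner, the counter, the strand setting or the kind of normalization. The signal did not resolve into whole reads, so a test on counts, which the design allowed for, was not used. Genes with a mean signal under 0.5 were left out, and log2(signal + 1) of 12715 genes was fitted with limma 3.58.1 (R 4.3.3), strain being the only term and the variance following the level. The fit was tested on 10 simulated tables with 200 changed genes each. Noise was drawn separately for each gene, and only genes of higher signal were changed. These tables therefore do not cover low genes or genes that vary together, and their outcome is not given here.

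Values per library are given for members with an unadjusted p under 0.05 or without overlap of the strains, for the 4 highest of each class and for up to 4 genes of each other list by p. Kif2c, Kif3a, Kif17, Kif1bp, Cd8b1, Cenpe, Mki67, Mcm6, Top2a, the multiciliated cell markers and genes on opposite strands were named after their values were seen. Members and lists were chosen with earlier results of these data known. Coordinates and promoters are from RefSeq (GRCm38.p6), and opposite-strand overlaps from GENCODE, by name. Alternatives were a pseudocount of 0.1, no filter, a mean of at least 2, quantile and trimmed mean scaling (trims of 30% and 5%), a replicate block, a Y-linked covariate and leaving out each library. The labels do not say whether the pools came from separate litters, so p-values measure the spread between these samples, which may be technical. Summaries used Python 3.11.15 with pandas 2.3.3, numpy 2.4.6, scipy 1.17.1 and matplotlib 3.10.9.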

Additional observations from a re-analysis of the deposited data

Results flagged for a closer look

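Kif1c in BALB/cJ had 1 library far from the other 3. BALB/cJ 2 was at 63.4, against 81.3 to 83.5 in BALB/cJ 1, 3 and 4, a gap of 0.8905 of the whole range of the strain and above Dixon's 95% critical value for 4 samples. The check was made on 24 sets of values, and chance alone passes it in about 1 of 20. Without BALB/cJ 2 the log2 fold change of Kif1c was -0.34 (limma adjusted p = 0.279), and without BALB/cByJ 3 it was -0.01 (limma adjusted p = 0.981), against -0.24 over all libraries (limma adjusted p = 0.427).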

How the results depend on the processing

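The 1 kinesin called, Kifc5b, was called with a mean of at least 2 and without BALB/cJ 2. The number of kinesins called was 0 with a pseudocount of 0.1, no filter, quantile normalization, trimmed mean scaling, the replicate block, the same 6 libraries without a block, the Y-linked covariate and without BALB/cJ 3 and 4, and 0 to 1 when single libraries were left out. The 6 libraries without a block, the pair left out, the counts of mitotic kinesins below 0 and those of strains that do not overlap were chosen after seeing the data. Directions turned for 3 of 18 named kinesins, none of them called: Kif1b to 0.0104, Kif5b to -0.0241 and Kif20a to 0.0348 with the Y-linked covariate, and Kif5b to -0.0054 without BALB/cByJ 2 and -0.0261 without BALB/cJ 2, within a range of -0.0261 to 0.1206 when single libraries were left out. Of 286 fold changes of these genes in other settings, 267 kept both direction and call. The count of kinesins whose strains do not overlap was 8, was 5 by quantile normalization (4 of the 8 lower, and 1 other higher), 7 by trimmed mean scaling (6 of the 8 lower, and 1 other higher) and 13 without BALB/cByJ 3. The share of all genes was computed only beside the count of 8 (12.6% lower and 4.33% higher). Replicate numbers 1 to 3 occur in both strains, but same-numbered libraries did not deviate together (r = -0.19, -0.26 and -0.05), and none matched its own number best. They were taken to share only a number, and with the replicate block the Kifc5b adjusted p was 0.224, against 0.110 over the same 6 libraries without it. The number of reads is unknown, which limits what can be said of the 9 kinesins left untested.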
